A study of Mus musculus with 8 samples.

Results

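The genes described here are the V genes of the mouse kappa light chain, taken as every gene annotated as an immunoglobulin V gene whose name starts with Igkv, with 2 genes left out. The deposited table lists 100 such genes among its 54532 genes, and 98 remained. They were grouped into 20 subfamilies by the number between Igkv and the hyphen, which names genes of similar sequence, and were ordered by their listed start on chromosome 6 (mm10). All 98 carried the symbol of a RefSeq gene at the same place in the GRCm38.p6 assembly, and 37 lay on the plus strand and 61 on the minus strand.

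A kappa light chain is made when a developing B cell joins 1 of its many V genes to a short joining segment, and the joined exon is then spliced to the constant exon of Igkc. Each B cell and its daughters use a single V gene for their kappa chain, and a plasma cell fills its cytoplasm with that transcript, so the V genes seen in a tissue reflect which B-lineage cells it holds and how much antibody RNA each makes. BAFF is a survival cytokine of the TNF family for mature B2 cells, the conventional B cells of spleen, blood and fat.

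Male C57BL/6J mice received an HFD (60% of calories from fat) for 12 weeks, from an age of 6 weeks as the series design gives it, were then grouped by a glucose tolerance test and moved to a NCD (16% of calories from fat). From the switch they were injected every 2 weeks, over 6 weeks, with 2 mg/kg of an anti-BAFF Ab (clone Sandy-2) or an isotype control Ab (IgG1k), and the experiment ended at week 18. Both groups thus shared the change of diet, and no lean or uninjected mice were analysed here. RNA came from the SVF, the non-adipocyte cells that collagenase frees from a gonadal fat pad, here 1 pad per mouse. Each mouse gave a single library: mice 1, 2, 6 and 9 had received control Ab, and mice 5, 7, 8 and 10 anti-BAFF Ab (n = 4 each).

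Libraries held 13562340 to 18548024 counts, and 3 counts, taken as the lowest level the depth can show, corresponded to 0.165 to 0.219 CPM (counts rescaled by TMM-adjusted library sizes; this limit covers counting error only). Macrophage and stromal progenitor markers were present in every mouse, with 6 macrophage markers summing to 7337 CPM or more and 5 stromal progenitor markers to 5153 CPM or more. The summed level of 4 epididymis genes ran from 12.7 to 1564 CPM with control Ab and from 56.5 to 1625 CPM with anti-BAFF Ab. Control Ab-treated mouse 2 and anti-BAFF Ab-treated mouse 7 were the highest, and the sum over all members and the counts of calls below are also given without them. This leaves in control Ab-treated mouse 6 (672 CPM) and anti-BAFF Ab-treated mouse 5 (648 CPM). The epididymis sum was 12.7 and 101 CPM in control Ab-treated mice 1 and 9, and 118 and 56.5 CPM in anti-BAFF Ab-treated mice 8 and 10. All 10 B cell markers had negative log2 fold changes (median -1.47). With edgeR, 9 had an unadjusted p under 0.05, and 0 passed the adjusted threshold of 0.05. Of all genes tested, 1.24% were lower at the unadjusted level and 0.0564% at the adjusted one. The summed level of the 10 markers was 60.5 to 72.4 CPM with control Ab and 27.3 to 48.1 CPM with anti-BAFF Ab. None of the 10 was at 0 in every mouse. Among 7 plasma cell markers, 4 were below 0, and the median log2 fold change was -0.18. Jchain, which links IgM and IgA into polymers, fell (log2 fold change -2.77, adjusted p = 0.0448). Mzb1 was at -2.07 (adjusted p = 0.188). The log2 fold changes of the remaining markers were -0.60 for Tnfrsf17, -0.18 for Derl3, 0.00 for Xbp1, 0.01 for Sdc1 and 0.25 for Prdm1. In bulk RNA, fewer B-lineage cells and less kappa RNA per cell cannot be told apart.

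Summed over the 98 genes, kappa V RNA was lower in each anti-BAFF Ab-treated mouse than in any control Ab-treated mouse. The sum was at 188, 143, 186 and 291 CPM in control Ab-treated mice 1, 2, 6 and 9, and at 51.0, 18.7, 66.0 and 24.8 CPM in anti-BAFF Ab-treated mice 5, 7, 8 and 10. The means were 202 ± 62.8 CPM and 40.1 ± 22.2 CPM (SD, n = 4 each), 5.04-fold apart, or -2.33 as a log2 ratio. Over all 100 kappa V genes they were 313 ± 65.5 CPM and 48.8 ± 22.2 CPM (SD, n = 4 each), with a log2 ratio of -2.68. In counts, the 98 genes summed to 2425 to 4707 per control Ab-treated mouse and 332 to 1014 per anti-BAFF Ab-treated mouse. All 100 kappa V genes held 3952 to 6247 and 469 to 1129 counts. Unless all 100 are named, the kappa V counts, shares, leading genes and subfamily sums below are those of the 98. For the 98 genes, the log2 ratio was -2.23 without mice 2 and 7, and -2.43 without the leading V gene of each mouse.

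Igkc, the constant exon to which every kappa V gene is spliced, fell from 563 ± 126 CPM to 87.0 ± 41.6 CPM (SD, n = 4 each), with a log2 fold change of -2.69 (SE 0.35, adjusted p = 0.0448). For each 100 Igkc counts, the 98 V genes held 32.3, 34.6, 34.7 and 40.5 counts in control Ab-treated mice 1, 2, 6 and 9, and 45.6, 40.2, 49.9 and 43.2 counts in anti-BAFF Ab-treated mice 5, 7, 8 and 10. The groups overlapped only between anti-BAFF Ab-treated mouse 7 and control Ab-treated mouse 9. That offset was not present when the 2 genes outside the rule were added back: all 100 kappa V genes together held 53.7 to 58.5 counts per 100 Igkc counts with control Ab and 54.7 to 59.4 with anti-BAFF Ab.

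Counts were spread over most of the locus. Of the 98 genes, 8 had no counts in any mouse, and 90 had at least 1 count. A count was found in all 4 control Ab-treated mice for 61 genes, in all 4 anti-BAFF Ab-treated mice for 26, and in all 8 mice for 24. There were 12 genes seen with control Ab only, led by Igkv12-41 with 105 counts in all, and 2 seen with anti-BAFF Ab only, Igkv14-130 with 2 counts and Igkv3-3 with 1. Between 70 and 77 genes were seen in each control Ab-treated mouse and between 46 and 57 in each anti-BAFF Ab-treated mouse. The group with more genes seen was also the group with more kappa V counts, although within a group the order of mice differed (control Ab-treated mouse 2 had the fewest counts and the most genes), and the part of depth in these numbers was not tested here. The mean CPM was lower with anti-BAFF Ab for 82 of the 90 genes and higher for 8. Among the 8 was Igkv1-122, which was not tested, with a mean of 0.03 CPM with control Ab and 1.69 CPM with anti-BAFF Ab. Anti-BAFF Ab-treated mouse 5 held 93 of its 104 counts, or 12.3% of the counts of the 98 genes in that mouse. In 29 of the 90, each anti-BAFF Ab-treated mouse was below each control Ab-treated mouse, against 0.928% of all genes with counts.

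Near-identical V genes can share reads in ways the counting could have split, so the subfamily sums are the more certain level. The 4 subfamilies with the highest mean CPM over all mice were Igkv1, Igkv4, Igkv3 and Igkv6, and Igkv1, Igkv3 and Igkv4 together held 39.6% to 57.3% of the kappa V counts of a control Ab-treated mouse and 38.7% to 54.4% of those of an anti-BAFF Ab-treated mouse. These are shares of counts rather than levels per length, and genes with counts were 338 to 404 bases long.

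**Figure D1:**
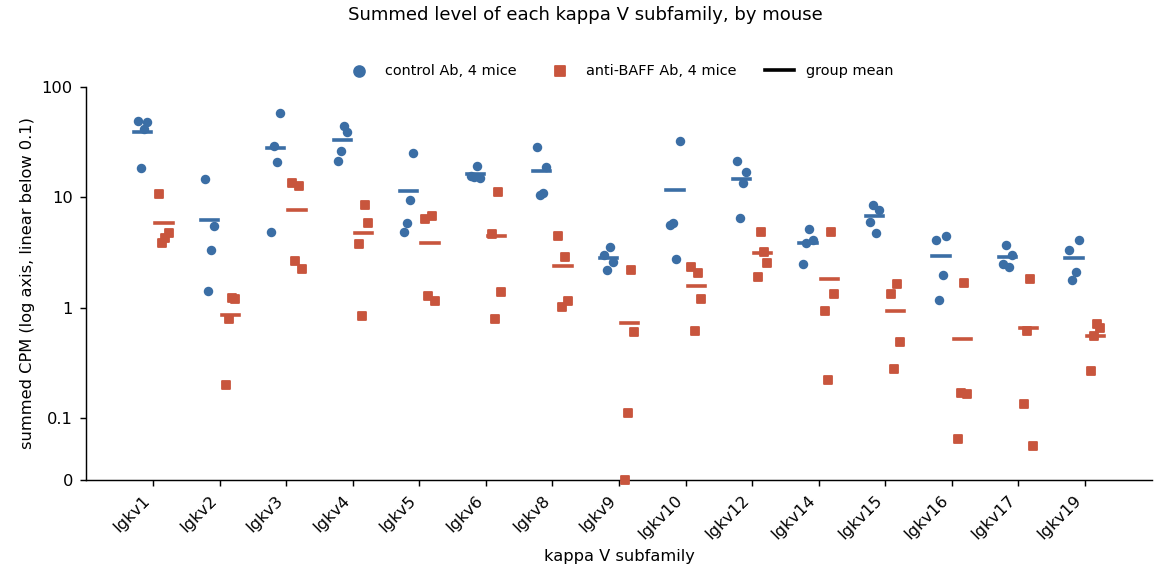
Each point is the summed CPM of a kappa V subfamily in 1 mouse (vertical axis, logarithmic and linear below 0.1), for the 15 subfamilies whose sum was tested, with circles for 4 control Ab-treated mice, squares for 4 anti-BAFF Ab-treated mice and lines for group means. Circles and squares are apart for subfamilies such as Igkv1, Igkv4 and Igkv15 and overlap for Igkv3, Igkv5 and Igkv14.

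Igkv1, with 10 genes, was at 48.4, 18.5, 41.5 and 48.2 CPM in control Ab-treated mice 1, 2, 6 and 9 and at 10.6, 3.88, 4.30 and 4.74 CPM in anti-BAFF Ab-treated mice 5, 7, 8 and 10. The groups were apart, with mouse 2 the lowest control Ab-treated mouse and mouse 5 the highest anti-BAFF Ab-treated mouse. Its log2 fold change was -2.74 (SE 0.40), and its adjusted p of 0.0977 was the lowest of the subfamilies (edgeR).

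Igkv4, the subfamily with the most genes (25, all on the minus strand), was at 21.2, 26.3, 44.2 and 38.6 CPM with control Ab and at 3.76, 0.843, 8.53 and 5.84 CPM with anti-BAFF Ab, in the same order of mice. Every control Ab-treated mouse was above every anti-BAFF Ab-treated mouse, and the log2 fold change was -2.78 (SE 0.54, adjusted p = 0.347).

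Igkv3, whose 9 genes lie nearest to Igkc, was at 4.83, 29.0, 21.0 and 57.7 CPM with control Ab and at 13.4, 2.64, 12.7 and 2.26 CPM with anti-BAFF Ab. Here the groups overlapped, since control Ab-treated mouse 1 was below anti-BAFF Ab-treated mice 5 and 8. The log2 fold change was -1.87 (SE 0.78, adjusted p = 1.00), and -1.25 without mouse 9.

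Igkv6 differed from Igkv3 in its even control levels, at 15.6, 15.2, 19.1 and 14.8 CPM, against 4.64, 0.787, 11.1 and 1.38 CPM with anti-BAFF Ab. Its groups did not overlap, and mouse 8 was the highest of the anti-BAFF Ab group. For Igkv6 the log2 fold change was -1.87 (SE 0.65) and without mouse 8 it was -2.87.

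Igkv15 and Igkv19, each with a single gene, also separated the groups. Igkv15-103 was at 5.95, 8.49, 4.75 and 7.67 CPM with control Ab and at 1.34, 0.281, 1.63 and 0.496 CPM with anti-BAFF Ab. Igkv19-93 was at 3.35, 1.77, 2.12 and 4.08 CPM and at 0.269, 0.562, 0.716 and 0.661 CPM. Both had low standard errors for kappa V genes, with log2 fold changes of -2.86 (SE 0.48, adjusted p = 0.172) and -2.33 (SE 0.38, adjusted p = 0.147).

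Of the 20 subfamilies, 15 had enough counts for a test, and their log2 fold changes were all negative, from -2.91 for Igkv10 to -1.10 for Igkv14 (median -2.33). With edgeR, 0 of the 15 were called lower at the adjusted threshold of 0.05 (0.0564% of the 15944 genes and sums tested), while 13 had an unadjusted p under 0.05 (1.19% over all genes and sums). DESeq2's Wald test placed 7 past its adjusted threshold, Igkv1, Igkv2, Igkv4, Igkv8, Igkv12, Igkv15 and Igkv19, against 0.28% over all genes and sums with an adjusted p. In simulated data by gene, 18% of the calls of DESeq2 were false, against 4.3% of those of edgeR. The 4 values per group did not overlap in 10 of the 20 subfamilies (0.868% over all genes and sums with counts), and these were Igkv1, Igkv2, Igkv4, Igkv6, Igkv8, Igkv10, Igkv12, Igkv15, Igkv17 and Igkv19. Without control Ab-treated mouse 2, edgeR called Igkv1 lower (adjusted p = 0.0394), and without mice 2 and 7 it called 0, with 10 at an unadjusted p under 0.05. The low end of the range, Igkv10, rested on control Ab-treated mouse 9: its log2 fold change was -1.61 without that mouse. Igkv14, at the other end, was at -2.23 without anti-BAFF Ab-treated mouse 8. Its sum lacks a gene left out by the rule, so the place of the whole subfamily in this range is not shown.

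**Figure D2:**
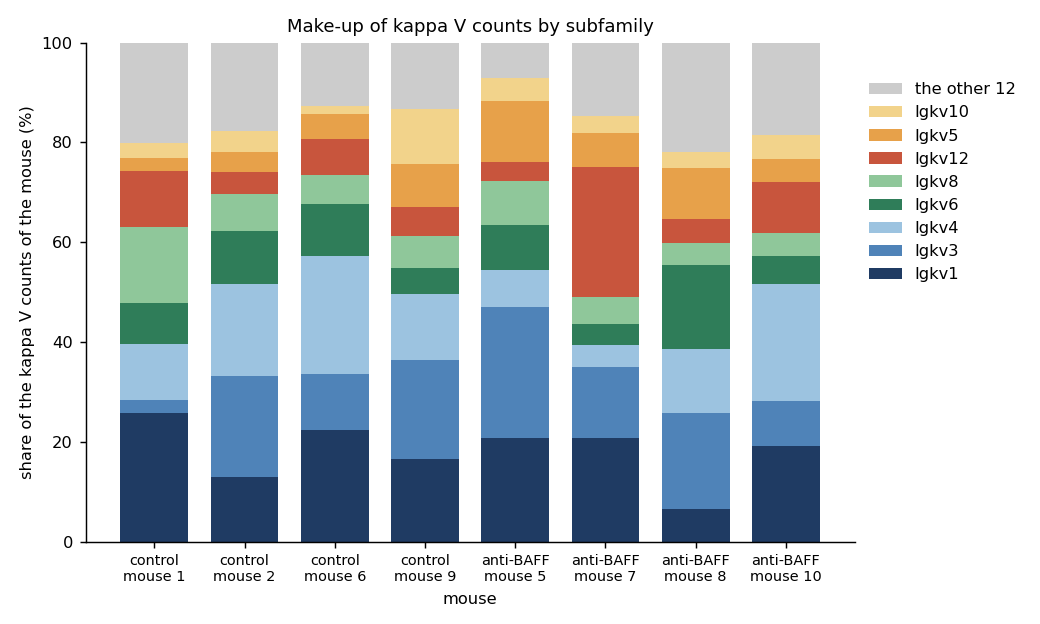
Each bar shows how the kappa V counts of 1 mouse divide among subfamilies, in percent of the counts of the 98 genes, with the 12 subfamilies of low share pooled in grey. The segments differ from mouse to mouse within both groups, as for Igkv12, which reaches 25.9% in anti-BAFF Ab-treated mouse 7.

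The make-up by subfamily differed between mice of the same group. The share of each subfamily was its counts over the counts of all 98 genes in a mouse, and in 0 of the 20 subfamilies were the shares of the 2 groups apart. The Igkv1 share was 12.9% to 25.7% with control Ab and 6.51% to 20.8% with anti-BAFF Ab, with the lowest value in mouse 8. The Igkv5 share was 5.09 ± 2.55% with control Ab and 8.56 ± 3.44% with the anti-BAFF Ab (SD, n = 4 each), with ranges of 2.60% to 8.60% and 4.66% to 12.4%. Igkv8 stood at 8.71 ± 4.32% and 5.81 ± 2.06% (SD, n = 4 each). The subfamily with the most counts was Igkv1 in mouse 1, Igkv4 in mice 6 and 10, Igkv12 in mouse 7 and Igkv3 in mice 2, 9, 5 and 8, so the same leading subfamily occurred in both groups. The shares were measured less precisely with anti-BAFF Ab, where 0 counts in a mouse allow a share of up to 0.296% to 0.904%, against 0.0637% to 0.124% with control Ab.

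Among the 98 genes, the V gene with the most counts also differed between mice, and 5 different genes led in the 8 mice. The same gene of the 98 led whether or not counts were divided by gene length. The 2 genes left out were not ranked. All 100 kappa V genes held 5501, 3980, 3952 and 6247 counts in control Ab-treated mice 1, 2, 6 and 9. The 98 held 3036, 2425, 2551 and 4707. With gaps of this size, a gene left out held more counts than the leader named below in each of these mice. This was also so in anti-BAFF Ab-treated mouse 10, with 621 counts for the 100 and 451 for the 98. Igkv3-2 (chromosome 6, 70698449 to 70699067, plus strand), whose start lies 28.0 kb from that of Igkc, led in 4 mice, 2 of each group. It held 16.7% of kappa V counts in control Ab-treated mouse 2 (exact binomial 95% interval 15.2% to 18.2%), 15.3% in control Ab-treated mouse 9, 21.9% in anti-BAFF Ab-treated mouse 5 and 16.4% in anti-BAFF Ab-treated mouse 8. In control Ab-treated mouse 1 it held 0.955%.

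Igkv1-110 (68270485 to 68271267, plus strand) led in control Ab-treated mouse 1 with 377 counts, or 12.4% (exact binomial 95% interval 11.3% to 13.6%). Igkv1-117 (68121046 to 68121827, plus strand) led in control Ab-treated mouse 6 with 227 counts, or 8.90% (interval 7.82% to 10.1%). The leaders of the remaining mice came from other subfamilies. Igkv12-89 (68834846 to 68835307, minus strand) led in anti-BAFF Ab-treated mouse 7 with 86 of 332 counts, or 25.9% (interval 21.3% to 31.0%), and no other Igkv12 gene had counts in that mouse. Igkv4-55 (69607275 to 69607828, minus strand) led in anti-BAFF Ab-treated mouse 10 with 76 of 451 counts, or 16.9% (interval 13.5% to 20.6%).

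**Figure D3:**
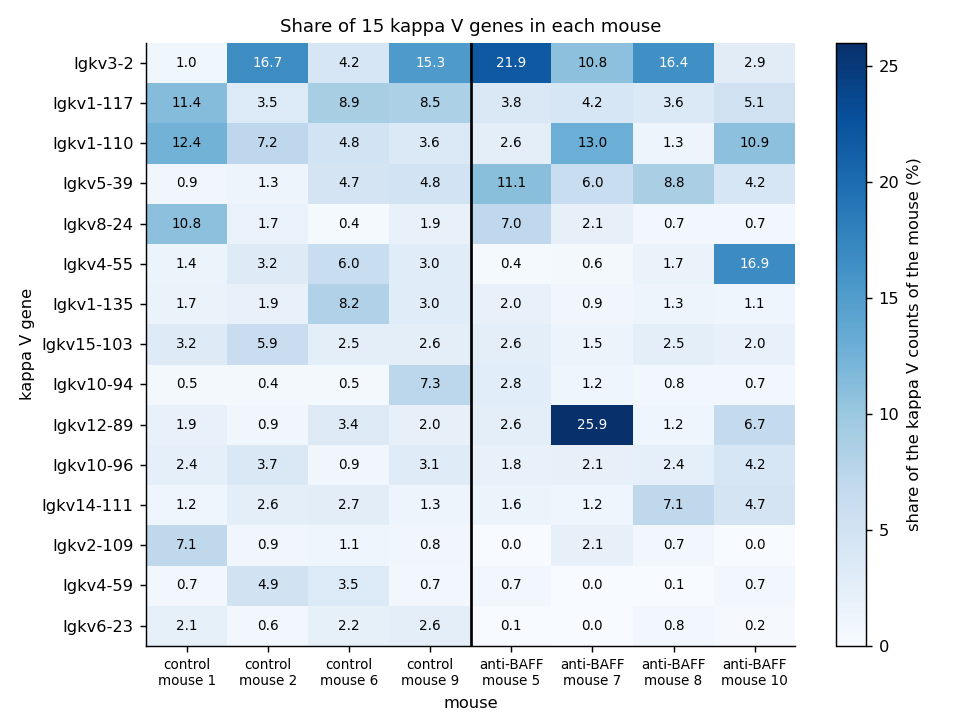
Rows are the 15 tested kappa V genes with the highest mean CPM, columns are the 8 mice (control Ab left of the line, anti-BAFF Ab right), and each cell gives the share of the kappa V counts of that mouse in percent, darker for a higher share. High cells of single mice stand out, such as Igkv12-89 at 25.9 in anti-BAFF Ab-treated mouse 7 and Igkv8-24 at 10.8 in control Ab-treated mouse 1.

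The 3 leading genes of a mouse together held 23.2% to 34.6% of the kappa V counts with control Ab. With anti-BAFF Ab they held 32.2% to 49.7%, and these ranges overlapped. A further measure was the inverse of the summed squared shares of the genes, which is higher when counts are spread more evenly. It was 18.3 to 26.4 with control Ab and 9.32 to 17.4 with anti-BAFF Ab, without overlap. Taken over subfamilies, it was 6.97 to 8.56 and 6.51 to 9.03, with overlap. These values leave out the genes outside the rule, and the part of depth in them was not tested. The lists of the 10 leading genes per length held 24 different genes over the 4 control Ab-treated mice and 24 over the 4 anti-BAFF Ab-treated mice. Of these, 2 were on the list of every control Ab-treated mouse, Igkv1-110 and Igkv1-117, and 2 on that of every anti-BAFF Ab-treated mouse, Igkv1-117 and Igkv5-39. Only Igkv1-117 was among the 10 leading genes of all 8 mice.

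Of the 98 genes, 34 passed the filter on low counts and were tested. A further 56 with counts were not tested and held 19.9% of the counts of the 98 genes. The filter asked for about 0.618 CPM in at least 4 mice. It was met in all 4 control Ab-treated mice by 30 of the 34 genes and in all 4 anti-BAFF Ab-treated mice by 5, so most of the tested genes entered through their control levels, and the counts that follow are a description. Among the 34, log2 fold changes were negative for 33 and positive for 1, from -4.87 for Igkv4-59 to 0.04 for Igkv4-63, with a median of -2.64, while the median of all 15963 genes tested was 0.00 and 48.5% of them were below 0. Without anti-BAFF Ab-treated mouse 8 the median was -3.31, over the 40 genes that then passed the filter.

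With edgeR, 0 of the 34 were called lower at the adjusted threshold of 0.05 (0.0564% of all genes tested), and 25 had an unadjusted p under 0.05 (1.24% of all genes tested). The lowest adjusted p was 0.121, for Igkv1-117 and Igkv1-110. DESeq2's Wald test, run without the filter, called 20 of 81 genes with an adjusted p lower (0.249% of all genes with an adjusted p). These calls carry the same limit, since 18% of the calls of DESeq2 were false in the simulated data. Leaving out control Ab-treated mouse 2 let edgeR call Igkv1-117 and Igkv8-30 lower, and without mice 2 and 7 it called Igkv1-117 (log2 fold change -3.50, adjusted p = 0.0198).

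**Figure D4:**
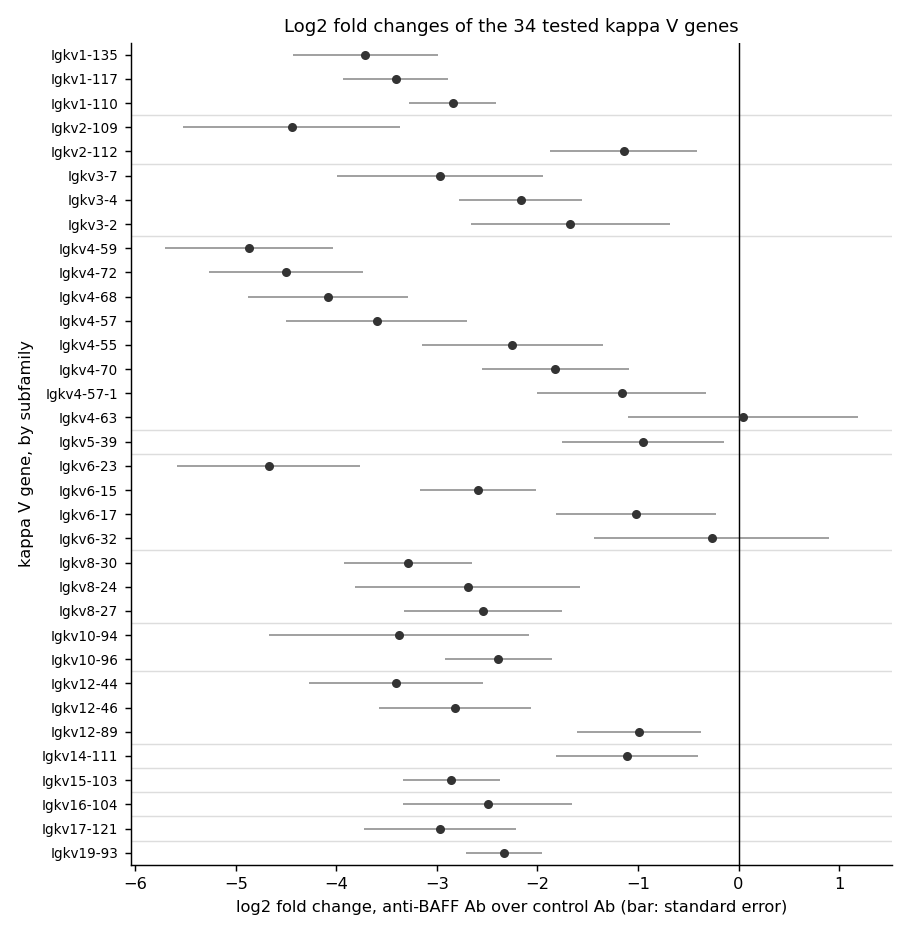
Points are log2 fold changes from edgeR, anti-BAFF Ab over control Ab, of the 34 tested kappa V genes, grouped by subfamily, and bars are standard errors. All points but that of Igkv4-63 lie left of 0, and genes of the same subfamily, as in Igkv4 and Igkv6, lie up to several log2 units apart.

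Per length, the highest mean levels over all mice among the 98 genes were those of Igkv3-2 (33.9 FPKM), Igkv1-117 (22.9 FPKM), Igkv1-110 (18.8 FPKM), Igkv5-39 (14.3 FPKM) and Igkv8-24 (11.5 FPKM). Each of these genes encodes the variable domain of a kappa chain, and what antigens such chains bind depends on the heavy chain they pair with.

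Igkv1-117 was at 21.4, 4.95, 16.6 and 24.9 CPM in control Ab-treated mice 1, 2, 6 and 9 and at 1.95, 0.787, 2.41 and 1.27 CPM in anti-BAFF Ab-treated mice 5, 7, 8 and 10. Mouse 2 was low among the control Ab-treated mice, and the groups did not overlap. The means were 16.9 ± 8.68 CPM and 1.60 ± 0.719 CPM (SD, n = 4 each), with a log2 fold change of -3.41 (SE 0.52, adjusted p = 0.121).

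Igkv1-110 was at 23.4, 10.3, 8.91 and 10.5 CPM with control Ab and at 1.34, 2.42, 0.846 and 2.70 CPM with anti-BAFF Ab. Control Ab-treated mouse 1 was far above the other 3, and the groups did not overlap. The log2 fold change was -2.84 (SE 0.43, adjusted p = 0.121), and without mouse 1 it was -2.44.

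Igkv3-2, although it led in 4 of the 8 mice, did not separate the groups, at 1.80, 23.9, 7.74 and 44.4 CPM with control Ab and 11.2, 2.02, 10.8 and 0.716 CPM with anti-BAFF Ab. Control Ab-treated mouse 1 was below mice 5, 7 and 8 of the anti-BAFF Ab group. The gene's log2 fold change was -1.67 (SE 0.99, adjusted p = 1.00), and -0.86 without control Ab-treated mouse 9.

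Igkv5-39 also did not separate the groups, at 1.67, 1.89, 8.69 and 13.97 CPM with control Ab and 5.65, 1.12, 5.79 and 1.05 CPM with anti-BAFF Ab. Control Ab-treated mice 1 and 2 were within the anti-BAFF Ab range. Its log2 fold change was -0.95 (SE 0.81, adjusted p = 1.00), and -0.26 without mouse 9.

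In Igkv4, the tested genes spanned the whole range of fold changes. Igkv4-59 was at 1.30, 7.08, 6.57 and 1.98 CPM with control Ab and at 0.336, 0, 0.0651 and 0.165 CPM with anti-BAFF Ab, so that only mouse 5 of the latter group was above the 3-count limit. Its log2 fold change was -4.87 (SE 0.83, adjusted p = 0.172), and -5.65 without mouse 5. Igkv4-72 followed at -4.50 (SE 0.76, adjusted p = 0.172; -5.29 without mouse 5), with 0 to 0.336 CPM in the anti-BAFF Ab-treated mice and 1.12 to 6.12 CPM in the control Ab-treated mice. Igkv4-55 lay between, at 2.60, 4.60, 11.2 and 8.78 CPM with control Ab and 0.202, 0.112, 1.11 and 4.19 CPM with anti-BAFF Ab. Mouse 10 gave the overlap, and without it the log2 fold change of Igkv4-55 was -3.84 instead of -2.25 (SE 0.90).

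Igkv4-63 was the single tested gene with a value above 0. It was at 1.61, 0.767, 0.073 and 0.804 CPM with control Ab and at 1.28, 0, 2.21 and 0 CPM with anti-BAFF Ab, where mice 7 and 10 had no counts. The log2 fold change of 0.04 (SE 1.15) was smaller than its error and turned to -0.28 with limma on log2(FPKM + 1) and to -1.03 without mouse 8.

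Igkv6 held genes of both kinds. Igkv6-23 was at 4.03, 0.885, 4.02 and 7.54 CPM with control Ab and at 0.0672, 0, 0.521 and 0.0551 CPM with anti-BAFF Ab, with a log2 fold change of -4.67 (SE 0.91, adjusted p = 0.315), and -6.46 without mouse 8. Igkv6-32 was at 1.67, 0.177, 1.31 and 2.35 CPM and at 0.134, 0, 4.23 and 0.275 CPM, so that mouse 8 was above every control Ab-treated mouse. Its log2 fold change was -0.27 (SE 1.17), and -3.27 without mouse 8.

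Other genes rested on single mice. Igkv10-94 had 342 counts (21.1 CPM) in control Ab-treated mouse 9 and 0.59 to 0.991 CPM in the other 3, and its log2 fold change moved from -3.38 to -0.56 without mouse 9 and to -4.31 without anti-BAFF Ab-treated mouse 5. Igkv8-24 was at 20.3, 2.48, 0.730 and 5.56 CPM with control Ab and at 3.56, 0.393, 0.456 and 0.165 CPM with anti-BAFF Ab, and its log2 fold change of -2.69 (SE 1.12) was -1.41 without control Ab-treated mouse 1 and -4.42 without anti-BAFF Ab-treated mouse 5. Igkv2-109 had 215 counts (13.3 CPM) in control Ab-treated mouse 1, 1.24 to 2.47 CPM in the other control Ab-treated mice and at most 0.456 CPM with anti-BAFF Ab. The latter gene kept its groups apart, with a log2 fold change of -4.44 (SE 1.08, adjusted p = 0.858), -3.15 without mouse 1 and -5.06 without mouse 8.

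Of the next genes by level, Igkv1-135 and Igkv10-96 separated the groups, and Igkv12-89 and Igkv14-111 did not. Igkv1-135 was at 3.22, 2.71, 15.3 and 8.59 CPM with control Ab and at 1.01, 0.169, 0.846 and 0.275 CPM with anti-BAFF Ab, without overlap (log2 fold change -3.71, SE 0.72, adjusted p = 0.315, and -3.09 without mouse 6). Igkv10-96 also kept the groups apart, with 1.68 to 9.03 CPM and 0.393 to 1.56 CPM (log2 fold change -2.39, SE 0.53, adjusted p = 0.580). Igkv12-89 ranged from 1.30 to 6.43 CPM with control Ab and from 0.781 to 4.83 CPM with anti-BAFF Ab, where mouse 7 was the highest (log2 fold change -0.99, SE 0.62, and -1.78 without mouse 7). Igkv14-111 ranged from 2.23 to 5.04 CPM and from 0.225 to 4.69 CPM, with mouse 8 the highest of the anti-BAFF Ab-treated mice (log2 fold change -1.11, SE 0.71, and -2.34 without mouse 8).

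Igkv16-104, Igkv17-121 and Igkv9-120 lead subfamilies of low level. Igkv16-104 was at 1.18 to 4.45 CPM with control Ab and 0.0672 to 1.69 CPM with anti-BAFF Ab, with mouse 8 the only overlap (log2 fold change -2.50, SE 0.84, and -4.36 without mouse 8). Igkv17-121 was at 0.657 to 3.13 CPM and 0 to 0.562 CPM, without overlap (log2 fold change -2.97, SE 0.75, adjusted p = 0.976, and -3.88 without mouse 7). Igkv9-120 was not tested and was at 1.39 ± 0.663 CPM with control Ab and 0.257 ± 0.278 CPM with anti-BAFF Ab (SD, n = 4 each).

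Position along the locus was compared next, since the subfamilies lie in partly interleaved blocks between 22.9 kb and 3171 kb from Igkc, measured between listed starts. Cut into 4 stretches of equal width, the genes of the farthest stretch (2424 to 3171 kb, 19 genes) summed to 53.5 ± 17.5 CPM with control Ab and 9.77 ± 4.09 CPM with anti-BAFF Ab (SD, n = 4 each). The next stretch (1667 to 2301 kb, 21 genes) was at 37.6 ± 24.5 CPM and 6.52 ± 1.07 CPM (SD, n = 4 each). The stretch of 826 to 1542 kb, with 25 genes of Igkv4, Igkv5 and Igkv12, was at 48.8 ± 14.6 CPM and 9.21 ± 6.35 CPM (SD, n = 4 each). In each of these stretches every anti-BAFF Ab-treated mouse was below every control Ab-treated mouse.

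The stretch nearest to Igkc (22.9 to 783 kb, 33 genes) had the smallest log2 ratio of group means, -2.09, against -2.45, -2.53 and -2.41 from the farthest inward, and it too kept the groups apart (62.1 ± 19.9 CPM and 14.6 ± 11.7 CPM; SD, n = 4 each). These ratios were not tested against each other. The share of kappa V counts in the nearest stretch was 26.1% to 39.7% with control Ab and 19.3% to 44.3% with anti-BAFF Ab, and in 0 of the 4 stretches did the shares of the groups separate. With 3 runs of equal numbers of genes the log2 ratios were -2.43, -2.50 and -2.09 from the farthest inward. Genes of the plus strand, which share the orientation of Igkc and join it by deletion rather than inversion, held 45.9% to 55.5% of the counts with control Ab and 46.8% to 54.8% with anti-BAFF Ab, and their log2 ratio was -2.31 against -2.36 for the minus strand.

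**Figure D5:**
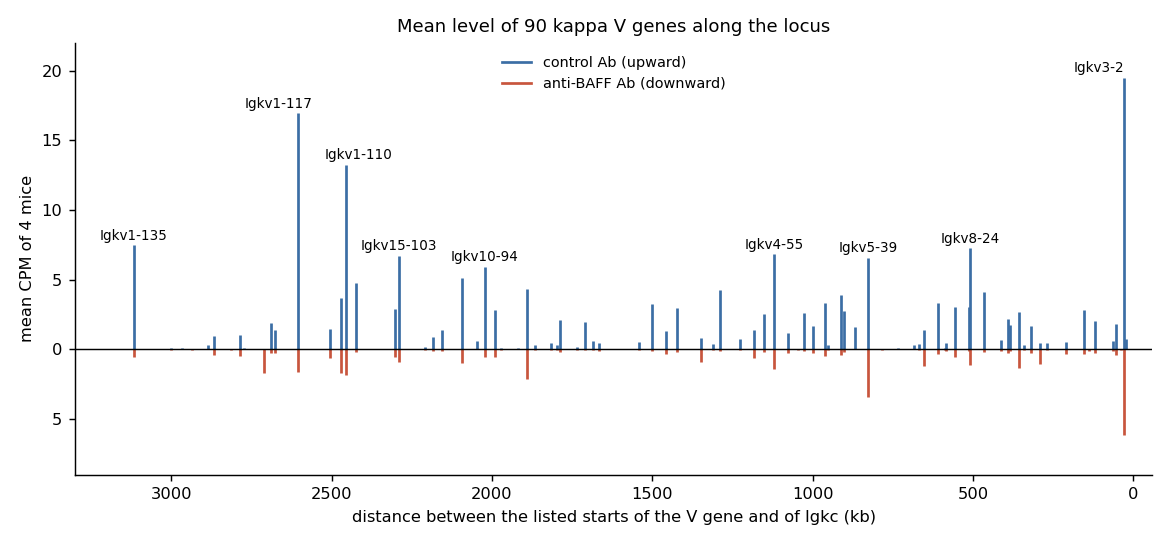
Vertical lines are mean CPM values of 4 control Ab-treated mice (upward) and 4 anti-BAFF Ab-treated mice (downward) for the 90 kappa V genes with counts, placed by the distance in kb between their listed start and that of Igkc. Genes with high control levels occur at both ends and along the middle, from Igkv1-135 to Igkv3-2, and the downward lines are shorter in most places.

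Related genes of kappa expression were read from fixed lists. Of 12 factors that bind or co-activate kappa gene elements, 1 fell past the adjusted threshold of edgeR and 0 rose past it. Of all genes tested, 0.0564% fell past that threshold. The factor was Pou2af1, a B cell coactivator of octamer-binding factors. Pou2af1 went from 8.32 ± 0.812 CPM to 2.12 ± 0.699 CPM (SD, n = 4 each), with a log2 fold change of -1.98 (adjusted p = 0.0448). Pax5, which maintains B cell identity, was at 7.05 ± 1.06 CPM and 2.44 ± 0.790 CPM (SD, n = 4 each; log2 fold change -1.53, adjusted p = 0.145). The other 10, among them Irf4, Spi1, Spib, Pou2f2, Ebf1 and Nfkb1, which other cells of the SVF also express, had log2 fold changes between -0.28 and 0.17. The genes of light chain rearrangement and of the surrogate light chain (Rag1, Rag2, Dntt, Vpreb1, Vpreb2, Vpreb3 and Igll1) were all too low to test, with a summed level of 0.20 to 0.88 CPM over the 7 genes in any mouse. The 60 Igkv pseudogenes were also not tested: 51 were at 0 in every mouse, and the sum of the 60 was 0.12 to 0.99 CPM with control Ab and 0 to 0.07 CPM with anti-BAFF Ab.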

How the data were processed

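Bulk RNA-seq of the gonadal WAT SVF was analysed for 8 mice, with treatment and mouse number as the labels give them. The authors had paired-end reads sequenced (NovaSeq) and deposited unnormalized counts per gene with coordinates, biotypes and gene lengths. Gene lengths, an other value as deposited, entered only the FPKM values. The submitters' processing notes name mm10. The aligner, the counter, its use of strand and the annotation release are not given in the sources used here. In the methods, levels are FPKM and the threshold is an adjusted p of 0.05.

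The members, gene lists and tests were chosen with earlier results of these data known. The test of the counts was that of edgeR 4.0.16 (R 4.3.3), with filterByExpr (minimum count 10), TMM, and the quasi-likelihood test with treatment as the only term (prior degrees of freedom 3.14), once per gene and once with the 98 genes replaced by subfamily sums, adjusted by Benjamini-Hochberg over all 15963 genes or 15944 genes and sums. Every adjusted p in the text is from edgeR unless DESeq2 is named. Standard errors follow from the log2 fold change and its F statistic. DESeq2 1.42.0 and limma 3.58.1 (log2(FPKM + 1)) served as alternatives, with RLE, upper quartile and library size scaling, the robust option, other filters, sums without the leading gene and leaving out mice. CPM uses TMM-scaled library sizes, and shares have exact binomial (Clopper-Pearson) 95% intervals, which cover counting error only. In simulated data with 200 of 15963 genes changed (absolute log2 fold change 2), edgeR recovered 89% with 4.3% false calls, DESeq2 91% with 18% and limma 87.5% with 4.89%. Replicates were checked for repeated libraries, and none was found (smallest chi-square per degree of freedom 7.91). Each library is a separate mouse by its label.

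Genes named are the 15 tested members with the highest mean CPM, the 4 with the lowest and the 4 with the highest log2 fold change, the leading member of each mouse and of each tested subfamily, and the listed related genes. Genes named outside this rule, such as Igkv12-41, Igkv14-130, Igkv3-3, Igkv8-30 and Igkv1-122, were chosen after their values were seen. Of the fixed marker lists, 6 T cell genes (5 below 0, median log2 fold change -0.15), 6 macrophage genes (0.00), 5 stromal progenitor genes (0.06), 7 plasma cell genes (-0.18), 3 adipocyte genes (0.20) and 3 tested epididymis genes (0.15) had 0 members at an adjusted p of 0.05, apart from Jchain. The RefSeq promoter table held 0 of the 98 genes, so no sequence is shown.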

Additional observations from a re-analysis of the deposited data

Results flagged for a closer look

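In 78 groups of 4 mice (the summed level, tested subfamily sums and named genes), 11 held a mouse that stood apart, with a gap to its nearest neighbour larger, relative to the range of the group, than the 95% limit of Dixon's test, and chance gives about 3.9 such groups (1 in 20). Some groups share counts. Without Igkv1-122, which was chosen after its values were seen, and without the 3 sums that repeat a single gene, 9 of 70 groups held such a mouse, where chance gives about 3.5. The values are CPM. The rate of 1 in 20 assumes normally distributed values, which was not tested for these CPM, and each mouse that stood apart stood high. The expected numbers are therefore only a rough guide.

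Among control Ab-treated mice, mouse 1 stood high for Igkv1-110 (23.4) and Igkv2-109 (13.3), and mouse 9 stood high for Igkv10-94 (21.1) and with it for the Igkv10 sum (32.5). Among anti-BAFF Ab-treated mice, mouse 5 stood high for the Igkv1 sum (10.6), for Igkv8-24 (3.56) and for Igkv1-122 (6.25), a gene of the Igkv1 subfamily chosen after its values were seen. In mouse 8 the high values were Igkv6-32 (4.23), Igkv6-23 (0.521) and Igkv16-104 (1.69), the only gene of its subfamily, so that the Igkv16 sum (1.69) repeats it. No mouse stood apart in the sum of all 98 genes.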

How the results depend on the processing

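No paired analysis was possible because the mouse numbers differ between the groups. The number of kappa V genes past an adjusted p of 0.05 was 0 in edgeR and 20 with DESeq2's Wald test, 5 without a filter on low counts (Igkv1-110, Igkv1-117, Igkv15-103, Igkv4-59 and Igkv4-72), 1 without mice 2 and 7 (chosen after seeing the data) and 0 to 2 with a mouse left out (2 without control Ab-treated mouse 2), all lower. For subfamily sums it was 0 in edgeR, 7 with DESeq2, 2 without the filter (Igkv1 and Igkv15), 1 when each sum lacked its leading gene (Igkv8, of 10 sums tested) and 0 to 1 with a mouse left out (1 without mouse 2). RLE, upper quartile and library size scaling, the robust option, limma and a minimum of 10 counts in every mouse gave 0 in both. The DESeq2 alternative changed both the tool and the filter, and the cause of these differences was not tested.

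The median log2 fold change of -2.64 was -1.99 with limma on log2(FPKM + 1), -1.70 over the 5 genes that had 10 counts or more in each mouse, and -3.31 to -2.37 with a mouse left out, where 37 to 44 genes passed the filter instead of 34. The log2 ratio of summed levels ranged from -2.68 to -2.10 when a mouse was left out. Signs turned for Igkv4-63 (-0.28 with limma and -1.03 to 0.57 with a mouse left out) and Igkv6-32 (-3.27 to 0.14 with a mouse left out). The other named genes and the subfamilies kept the sign of their log2 fold change under the alternatives run. In the anti-BAFF Ab-treated mice, 332 to 1014 kappa V counts per mouse limit what can be said of single genes.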
